A study of Cricetulus griseus with 24 samples.

Results

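The genes described are caspases and the proteins that regulate them: the initiator caspases Casp2, Casp8 and Casp9, the executioner Casp6, the inflammatory caspase Casp12, the adaptor Apaf1, the caspase inhibitor Xiap and its antagonist Diablo. Members were taken by gene symbol, without regard to case, from the deposited table of counts, which holds 28037 genes, and 6 of the 8 names were found this way. A row with the provisional name LOC100689370 carries the gene ID that RefSeq gives to Casp9, and it was added on that ground after the table had been seen, so that 7 of 8 genes were analysed. No row could be matched to Casp12. All 7 passed the filter on low counts in each of the 12 comparisons.

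Apoptotic caspases are cysteine proteases that are made as inactive precursors and act in a cascade. Initiators are activated on scaffolds, such as the Apaf1 apoptosome for caspase-9, the PIDDosome for caspase-2 and death receptor complexes for caspase-8, and then cleave executioners. XIAP binds and blocks caspases, Diablo released from mitochondria removes that block, and in cultured CHO cells this machinery is studied because cell death limits how long a production culture lasts. Since caspases are controlled mainly by cleavage, an mRNA level gives the supply of a precursor and not its activity.

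RNA-seq was done on 3 Chinese hamster ovary (CHO) lines, each at exponential and at stationary phase. A0 is an antibody-producing line made from the DG44 host; its cells carry a plasmid with the IgG heavy chain gene and another with the light chain and neomycin resistance genes. A1 is the progeny of A0 that was amplified by stepwise selection in methotrexate, and CHO-S, whose sample titles read NDST, is a different CHO line that makes no antibody and served as the negative control. Each kind of cell is represented by a single line, so that a difference between A0, A1 and CHO-S cannot be told apart from a difference between individual lines. There were 4 cultures of A0, 3 of A1 and 3 of CHO-S at each phase, 20 in all, numbered within each line. At exponential phase each A0 culture had 2 libraries, 8 in all, which were summed: the second ones are marked RLT for cultures 1 and 2 and duplicate for cultures 3 and 4. The RLT libraries stood apart from those they were summed with, by a chi-square per degree of freedom of 26.8 in culture 1 and 5.98 in culture 2, against 2.43 between the first libraries of these cultures. The duplicates gave 3.12 and 2.74. By the same measure, A0 cultures 1 and 2 stood apart from cultures 3 and 4 at stationary phase. Values were 15.7 to 19.2 between these sets, against 3.74 for 1 with 2 and 2.77 for 3 with 4. At exponential phase the first libraries gave 10.5 to 18.8 between the sets, but 3 with 4 also gave 11.7. Calls that differ between these sets are given with the results.

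Counts on genes per A0 culture ran from 23065838 to 26584337 at exponential and from 10727892 to 12913264 at stationary phase. The A1 cultures had 11823294 to 13060749 and 6532373 to 12140773, and the CHO-S cultures had 12449462 to 14652646 at exponential phase. At stationary phase the CHO-S cultures had 1038026, 14290792 and 7516854 counts. Culture 1 of this group stood apart: it was the shallowest library of the series, and 32.8% of its reads fell outside genes, against 11.9% to 18.4% in the other libraries. It also gave the highest Casp6 and Xiap values of its group and the lowest value of every other member, that of Casp9 from 3 counts. Member calls that change without it, and orders of means that it alters, are therefore given both ways.

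Cultures were checked with marker genes, with levels in TMM-normalized CPM (counts scaled to library size). The mesenchymal marker Vim lay between 728 and 1465 CPM in every culture but moved with phase. It fell from 1374 to 1465 CPM at exponential to 728 to 877 CPM at stationary phase in A0 (-0.83, adjusted p = 3.52e-06), from 1147 to 1248 to 1033 to 1082 CPM in A1 (-0.16, adjusted p = 0.0113), and from 1212 to 1266 to 786 to 1041 CPM in CHO-S (-0.39, adjusted p = 0.0875; -0.28, adjusted p = 2.27e-09, without the shallow culture). The 6 markers of other cell types (Ptprc, Pecam1, Cdh5, Epcam, Cd3e and Alb) summed to 2.75 to 3.96 CPM at exponential and 2.85 to 4.002 CPM at stationary phase in A0, to 2.74 to 3.16 and 5.16 to 5.83 CPM in A1, and to 1.71 to 2.51 and 2.06, 6.30 and 7.86 CPM in CHO-S, the 2.06 being the shallow culture. At stationary phase Pecam1 and Epcam were called higher in A1, Pecam1 and Alb in CHO-S, and Alb higher and Cdh5 lower in A0. Apart from that of Vim in A0, each of these marker calls was lost in at least 1 other setting. The share of reads that were not aligned also moved with phase, with 3.13% to 4.85% at exponential and 6.43% to 9.41% at stationary phase in A0 and with 7.49% to 8.64% and then 10.3% to 11.5% in A1, against 2.31% to 2.36% and 2.35% to 3.06% in CHO-S. What part these shifts have in the phase changes of the members was not tested. The highest single value was that of Pecam1, 7.18 CPM in CHO-S at stationary phase, Epcam exceeded Pecam1 in every A0 culture and in 5 of 6 A1 cultures, and Ptprc and Cd3e did not exceed 0.171 CPM anywhere. The growth phase itself was read from 7 proliferation genes (Mki67, Top2a, Ccnb1, Cdk1, Mcm2, Mcm5 and Pcna). Their summed level was 3519 to 4013 CPM in exponential and 1166 to 2024 CPM in stationary A0, 3200 to 3347 and 2212 to 2395 CPM in A1, and 3191 to 3252 and 1731 to 2387 CPM in CHO-S. At stationary phase 6 of the 7 were called lower in A0, 6 in A1 and 4 in CHO-S, or 7 in CHO-S without the shallow culture. The CHO-S count depends on single cultures: Mcm5 alone kept its call with a replicate block, without exponential culture 1 or 3 and without stationary culture 2 or 3. Without exponential culture 2 the calls of Ccnb1, Mcm2, Mcm5 and Pcna were all lost (edgeR adjusted p = 0.102, 0.0961, 0.0512 and 0.111), with 5 of the 7 lower at an unadjusted p under 0.05; DESeq2 on all cultures called 5. In bulk RNA of a culture, fewer cells in a given state and less RNA per cell cannot be told apart, and this holds for every level that follows.

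The phase responses of the executioner Casp6 and the inhibitor Xiap differed between the producer lines and CHO-S. At stationary phase Casp6 mRNA fell in A0 and A1, while the change in CHO-S had the opposite sign, and Xiap mRNA rose in CHO-S with no change called in A0 or A1 when A0 libraries were summed. At both phases Casp8 was higher in the producer lines than in CHO-S, and Xiap was lower in A1 than in A0. Apaf1 passed in none of the 12 edgeR comparisons, although some of the other settings called it, whereas Diablo fell slightly in A0 and A1 at stationary phase. Significance was called at an adjusted p under 0.05 (edgeR's quasi-likelihood test, two-sided, Benjamini-Hochberg over all genes tested), and changes are given as log2 fold changes with standard errors (SE).

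For the growth phase response, 3 of 7 members passed in A0, where 37.6% of all genes tested passed, and 3 of 7 in A1, where 33.4% passed; all of these were lower at stationary phase. In CHO-S 2 of 7 passed, 1 in each direction, against 13.3% of all genes, and 5 of 7 did so, 3 of them higher, without the shallow culture, against 47.7%. The CHO-S count fell to 0 in edgeR with a replicate block and without exponential culture 1, 2 or 3 or stationary culture 2, where 3 or 4 members had an unadjusted p under 0.05; DESeq2 on all cultures called 3. The median log2 fold change of the members was -0.25 in A0, -0.23 in A1 and -0.03 in CHO-S, where that of all genes tested was 0.00, 0.03 and 0.02; without the shallow culture the CHO-S median was 0.07, against 0.00. Members whose cultures did not overlap between phases numbered 3 in A0 (35.7% of all genes), 4 in A1 (43.1%) and 5 in CHO-S (36.4%), or 7 (61.5%) without the shallow culture.

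**Figure D1:**
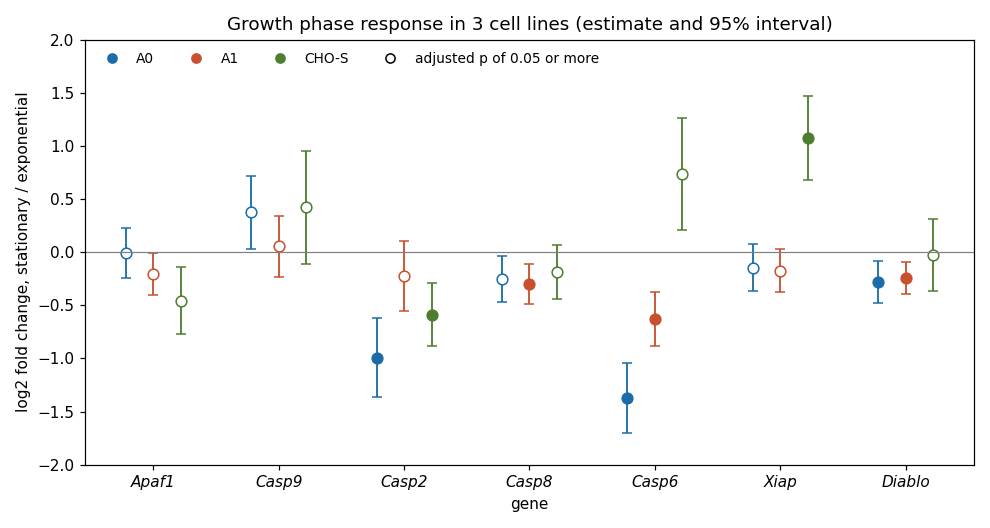
Log2 fold change of stationary over exponential phase (vertical axis) for 7 genes (horizontal axis) in A0 (4 cultures per phase), A1 and CHO-S (3 cultures per phase each); bars are 95% confidence intervals and filled points have an adjusted p under 0.05 (edgeR). Casp6 lies at -1.37 in A0, -0.63 in A1 and 0.74 in CHO-S, and Xiap at -0.14, -0.17 and 1.07.

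Casp6 (gene ID 100766458) encodes an executioner that cleaves nuclear lamins. In A0 it was at 17.5, 15.3, 21.1 and 14.9 CPM in cultures 1 to 4 at exponential phase and at 5.96, 5.63, 7.64 and 7.49 CPM at stationary phase. In A1 the cultures had 13.8, 15.3 and 14.03 CPM at exponential and 9.24, 9.04 and 9.24 CPM at stationary phase. In CHO-S they had 29.5, 26.5 and 25.5 CPM at exponential and 68.1, 38.5 and 39.0 CPM at stationary phase, the first of these from 66 counts. Every stationary culture of A0 and of A1 thus lay below every exponential culture of its line, and every stationary CHO-S culture lay above the exponential ones, with the shallow culture highest. The fall had a log2 fold change of -1.37 (SE 0.155, adjusted p = 3.59e-06) in A0 and of -0.63 (SE 0.124, adjusted p = 0.000144) in A1. In CHO-S the value was 0.74 (SE 0.225) and did not pass (adjusted p = 0.0727), but it passed without the shallow culture, at 0.51 (SE 0.0822, adjusted p = 9.03e-08). Both DESeq2 and a fit of all 6 groups called it as well.

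The differences between these responses were tested directly. The Casp6 response of A0 was 2.09 log2 units below that of CHO-S (-2.09, SE 0.251, adjusted p = 1.74e-05), and it was -1.90 (SE 0.216, adjusted p = 5.02e-06) when culture 1 of CHO-S was left out at both phases. For A1 against CHO-S the difference was -1.28 (SE 0.220, adjusted p = 0.003), and -1.23 (SE 0.155, adjusted p = 2.66e-08) without that culture. Casp6 fell less in A1 than in A0, by a difference of 0.70 (SE 0.204, adjusted p = 0.0318), but this call was lost in 8 of 16 other settings, where adjusted p reached 0.153: a fit of all 6 groups, the first A0 libraries alone, A0 cultures 3 and 4 alone, and leaving out A1 culture 1, 2 or 3 or A0 culture 1 or 2. The comparisons with CHO-S share its cultures and are not independent of each other.

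Because the phases diverged, the distance between lines grew. A0 had less Casp6 than CHO-S by a log2 fold change of -0.65 (SE 0.128, adjusted p = 0.000634) at exponential and of -2.78 (SE 0.223, adjusted p = 7.05e-06) at stationary phase, the second being -2.51 without the shallow culture. A1 was below CHO-S by -0.93 (SE 0.0901, adjusted p = 4.55e-09) and -2.32 (SE 0.236, adjusted p = 0.000201), the second being -2.10 without it. Between A1 and A0 no difference was called at exponential phase (-0.26, SE 0.136, adjusted p = 0.184). At stationary phase A1 was higher by 0.44 (SE 0.154, adjusted p = 0.0391), a call that 8 of 15 other settings lost, namely DESeq2, the fit of all 6 groups, A0 cultures 3 and 4 alone and the omission of A0 culture 1 or 2 or of any A1 culture. By mean level the groups ran from CHO-S stationary (48.5 CPM) through CHO-S exponential (27.2), A0 exponential (17.2), A1 exponential (14.4) and A1 stationary (9.17) to A0 stationary (6.68); of these neighbours, A0 and A1 at exponential phase alone overlapped.

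Of 10588 genes averaging 5 CPM or more, the 5 with the group pattern nearest to Casp6, by root mean square difference of mean-centred log2 CPM over the 6 groups, were Ssc5d (0.109), Ptrf (0.154), Capn5 (0.172), Myadm (0.188) and Ccnd1 (0.216). The pattern includes the shallow CHO-S culture, and the list is a description of likeness in level over 6 group means.

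Xiap (gene ID 100689374) encodes the X-linked inhibitor of apoptosis protein. In A0 the cultures had 38.6, 40.5, 36.9 and 31.9 CPM at exponential and 34.8, 35.7, 31.5 and 32.9 CPM at stationary phase. In A1 they had 20.9, 23.1 and 21.8 CPM at exponential and 20.05, 18.4 and 19.4 CPM at stationary phase. In CHO-S they had 26.0, 24.6 and 28.5 CPM at exponential and 70.2, 52.0 and 49.2 CPM at stationary phase, the first of these from 68 counts. Every A1 culture was below every A0 culture of either phase, while stationary CHO-S cultures exceeded all others. Phases overlapped in A0; in A1 they did not, although the gap was small.

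Xiap rose in CHO-S at stationary phase by a log2 fold change of 1.07 (SE 0.170, adjusted p = 0.00904), and by 0.95 (SE 0.0778, adjusted p = 2.6e-19) without the shallow culture. That call was lost with a replicate block (adjusted p = 0.0531) and when any 1 of the 3 exponential cultures or stationary culture 2 was left out (adjusted p = 0.0521 to 0.0846), with estimates from 1.05 to 1.16. In A0 the value was -0.14 (SE 0.103, adjusted p = 0.305), but with only the first A0 exponential libraries Xiap fell by -0.30 (SE 0.110) and passed (adjusted p = 0.0371). By CPM without TMM scaling, the first libraries of A0 cultures 1 and 2 had 44.5 and 47.9 and their RLT libraries 32.0 and 30.9. The value in A1 was -0.17 (SE 0.0988, adjusted p = 0.195). The response of A0 was lower than that of CHO-S by -1.21 (SE 0.184, adjusted p = 0.000212) and that of A1 by -1.20 (SE 0.160, adjusted p = 0.000567); both differences passed in every other setting, and without culture 1 of CHO-S they were -1.03 and -1.13. Between A1 and A0 the difference of responses was -0.06 (95% interval -0.37 to 0.24).

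In amplified A1, Xiap was lower than in parental A0 by -0.76 (SE 0.110, adjusted p = 0.000155) at exponential and by -0.82 (SE 0.0969, adjusted p = 2.02e-05) at stationary phase, and both calls held in every other setting. A0 lay above CHO-S at exponential phase (0.50, SE 0.107, adjusted p = 0.00128) and below it at stationary phase (-0.74, SE 0.161, adjusted p = 0.0044). With A0 cultures 1 and 2 alone, the latter call was lost (adjusted p = 0.0642); without the shallow culture the value was -0.57 (adjusted p = 0.000356). A1 lay below CHO-S at both phases, by -0.27 (SE 0.0829, adjusted p = 0.00688) and -1.55 (SE 0.177, adjusted p = 0.000359), the second being -1.43 without the shallow culture; the first was lost in the fit of all 6 groups (adjusted p = 0.0965) and without CHO-S exponential culture 3 (adjusted p = 0.0592). Mean levels ran from CHO-S stationary (57.1 CPM) through A0 exponential (37.0), A0 stationary (33.7), CHO-S exponential (26.4) and A1 exponential (21.9) to A1 stationary (19.3), and only the A0 pair overlapped among neighbours.

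**Figure D2:**
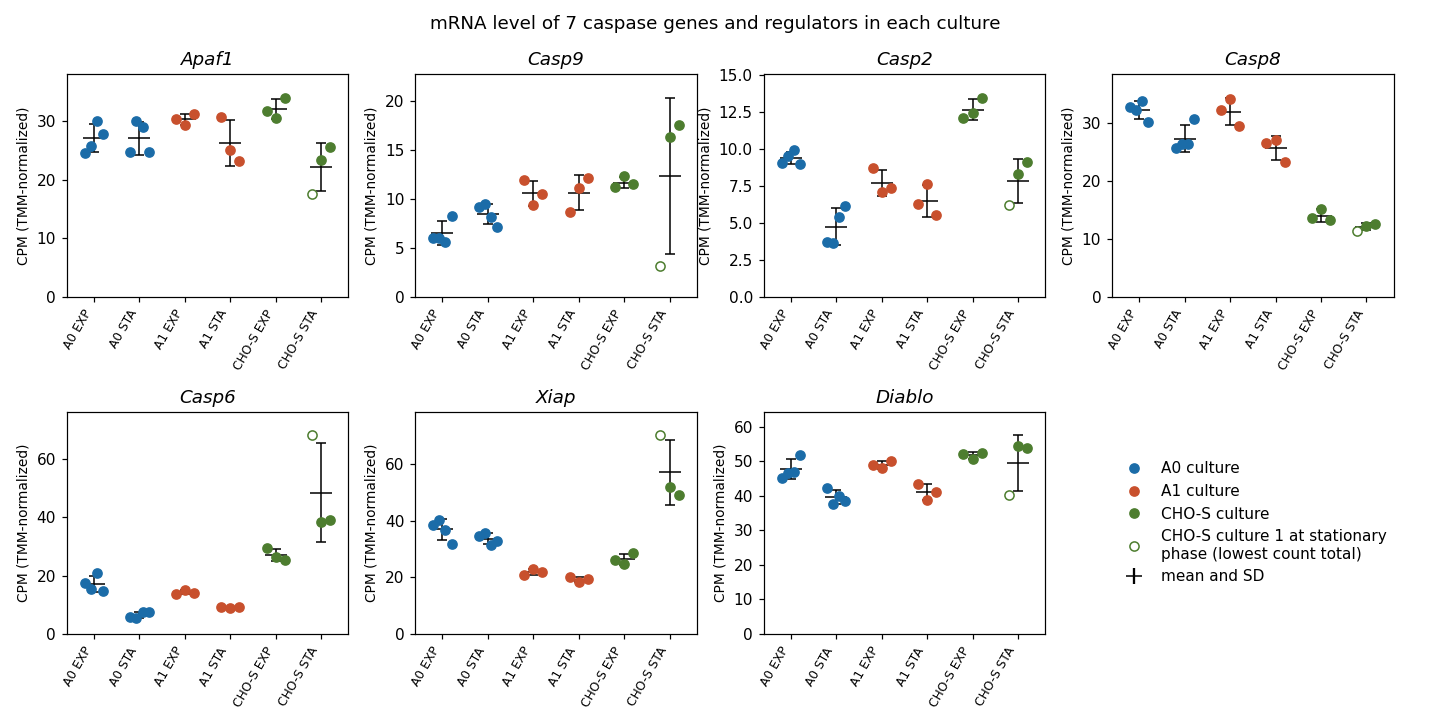
TMM-normalized CPM (vertical axes, from 0) of 7 genes in each of 20 cultures, grouped by line and phase (EXP, exponential; STA, stationary); points are cultures, black bars the mean and SD, and the open point is the shallow CHO-S culture. Casp8 separates A0 and A1 from CHO-S at both phases, Xiap separates A1 from A0, and Casp6 and Xiap are highest in stationary CHO-S.

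Diablo (gene ID 100754770), also called Smac, is the mitochondrial protein that displaces caspases from XIAP. In A0 it was at 45.3, 46.5, 47.0 and 51.8 CPM at exponential and 42.2, 37.6, 40.0 and 38.4 CPM at stationary phase. A1 cultures had 48.8, 48.0 and 50.1 CPM and then 43.5, 38.7 and 40.9 CPM. CHO-S cultures had 52.1, 50.5 and 52.3 CPM and then 40.3, 54.3 and 53.8 CPM, the shallow culture being the low one. Phases did not overlap in A0 or A1, but the fall was small: -0.28 (SE 0.0931, adjusted p = 0.0253) in A0 and -0.24 (SE 0.0752, adjusted p = 0.0117) in A1. The A0 call was lost in 6 of 17 other settings, namely A0 cultures 1 and 2 alone, cultures 3 and 4 alone, or the omission of exponential culture 4 or of stationary culture 2, 3 or 4, and the A1 call in 3 of 12, namely the fit of all 6 groups and the omission of exponential culture 3 or stationary culture 2. In CHO-S the value was -0.03 (SE 0.146, adjusted p = 0.933), and 0.07 (SE 0.0670, adjusted p = 0.43) without the shallow culture.

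No difference in Diablo between lines passed at either phase with all cultures in edgeR's fits of 2 groups. At exponential phase A1 differed from A0 by 0.04 (95% interval -0.16 to 0.23) and from CHO-S by -0.08 (-0.21 to 0.04). A0 differed from CHO-S by -0.11 (-0.29 to 0.08), and by -0.17 with A0 cultures 1 and 2 alone, which passed (adjusted p = 0.0296). At stationary phase, leaving out the shallow CHO-S culture brought both producers below CHO-S, A0 by -0.44 (SE 0.0903, adjusted p = 0.0015) and A1 by -0.43 (SE 0.0881, adjusted p = 1.37e-05). With that culture the values were -0.37 (adjusted p = 0.0692) and -0.32 (adjusted p = 0.157), and the fit of all 6 groups called both; DESeq2 called the A0 difference (adjusted p = 0.0255). The phase response of A1 was below that of CHO-S by -0.25 (adjusted p = 0.322), and by -0.34 (SE 0.110, adjusted p = 0.0189) without culture 1 of CHO-S. Mean levels ran from CHO-S exponential (51.6 CPM) and stationary (49.4) through A1 (48.9) and A0 (47.6) exponential to A1 (41.0) and A0 (39.6) stationary, and of these neighbours the A0 exponential and A1 stationary cultures alone did not overlap. Without the shallow culture stationary CHO-S was highest, at 54.04 CPM, and neither it and exponential CHO-S nor the latter and exponential A1 overlapped.

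Apaf1 (gene ID 100758500), which assembles with cytochrome c into the platform for caspase-9, varied little. Its group means were 27.1 and 27.2 CPM in A0 at exponential and stationary phase, 30.4 and 26.3 CPM in A1, and 32.1 and 22.2 CPM in CHO-S. The largest phase change was in CHO-S, where exponential cultures had 31.8, 30.6 and 34.0 CPM and stationary ones 17.5, 23.4 and 25.6 CPM. These did not overlap, yet the log2 fold change of -0.46 (SE 0.136) did not pass (adjusted p = 0.0677); without the shallow culture it was -0.40 (SE 0.0883) and passed (adjusted p = 6.24e-05), as it did in the fit of all 6 groups (adjusted p = 0.0209). In A1 the value was -0.21 (adjusted p = 0.1), and -0.31 (adjusted p = 0.0155) without stationary culture 1. In A0 the value was -0.01 (95% interval -0.24 to 0.23), with a sign that depends on the setting. Exponential A0 cultures (24.7, 25.7, 30.1 and 27.8 CPM) lay below the CHO-S ones, by -0.24 (SE 0.0999, adjusted p = 0.0646), a difference that 7 of 16 other settings called, DESeq2 among them. A1 differed from A0 at that phase by 0.16 (adjusted p = 0.269), and by 0.26 (adjusted p = 0.0213) with A0 cultures 1 and 2 alone. In order, the means ran from CHO-S exponential through A1 exponential, A0 stationary, A0 exponential and A1 stationary to CHO-S stationary, and every neighbouring pair overlapped, with or without the shallow culture.

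Casp9 (gene ID 100689370) is the initiator activated on that platform. In A0 its level was 6.004, 5.99, 5.58 and 8.24 CPM at exponential and 9.12, 9.41, 8.11 and 7.12 CPM at stationary phase. In A1 it was 11.9, 9.30 and 10.4 CPM at exponential and 8.67, 11.1 and 12.1 CPM at stationary phase. In CHO-S it was 11.1, 12.3 and 11.5 CPM at exponential and 3.10, 16.3 and 17.5 CPM at stationary phase, the first from 3 counts. At exponential phase all A0 cultures lay below all A1 and CHO-S cultures, whereas phases overlapped within each line, in A0 through culture 4 and in CHO-S through the shallow culture.

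At exponential phase A1 had more Casp9 than A0 by a log2 fold change of 0.71 (SE 0.164, adjusted p = 0.00512), a call lost with A0 cultures 3 and 4 alone (0.61, adjusted p = 0.0522). A0 had less than CHO-S by -0.84 (SE 0.149, adjusted p = 0.000276). At stationary phase A1 and A0 differed by 0.34 (SE 0.155), which did not pass (adjusted p = 0.109) but did with A0 cultures 3 and 4 alone (0.50, adjusted p = 0.0218), and A0 was below CHO-S by -0.82 (SE 0.289, adjusted p = 0.0453). That last call was lost in 11 of 15 other settings, where adjusted p reached 0.36, DESeq2, filterByExpr, the replicate block, A0 cultures 1 and 2 alone or 3 and 4 alone, and the omission of any A0 culture or of CHO-S culture 2 or 3 among them; without the shallow culture it was -0.98 (SE 0.150, adjusted p = 0.000155), and A1 was then below CHO-S as well (-0.66, adjusted p = 2.65e-05).

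For Casp9 the phase response in A0 was 0.37 (SE 0.163, adjusted p = 0.084). It was 0.62 (adjusted p = 0.00902) in A0 cultures 1 and 2 alone and 0.14 (adjusted p = 0.702) in cultures 3 and 4 alone, and it also passed with filterByExpr (adjusted p = 0.0459) and without exponential culture 4 (0.52, adjusted p = 0.0129). Over all genes, A0 cultures of equal number correlated across phases in all 4 pairs; cultures 1 and 2 each matched their own number best, while 3 and 4 resembled each other at least as much. The labels do not say whether numbers pair, and a fit with the number as a block was run as an alternative. In this fit Casp9 passed in A0 (0.38, SE 0.143, adjusted p = 0.0204), as did the fall of Casp8 (-0.25, SE 0.106, adjusted p = 0.0407), which raised the members past the threshold in A0 from 3 to 5, with 42.6% of all genes passing. In CHO-S the Casp9 response was 0.42 (SE 0.228, adjusted p = 0.268), and 0.53 (SE 0.115, adjusted p = 4.73e-05) without the shallow culture. In A1 it was 0.05 (95% interval -0.23 to 0.34). None of the differences between these responses passed (edgeR adjusted p = 0.383, 0.498 and 1), and the unadjusted p values were 0.125, 0.198 and 0.962. With A0 cultures 1 and 2 alone, however, the response of A1 was below that of A0 (-0.60, SE 0.212, adjusted p = 0.0465), and with cultures 3 and 4 alone the difference was -0.11 (adjusted p = 0.895). Mean levels ran from CHO-S stationary (12.3 CPM) and exponential (11.6) through A1 stationary (10.6) and exponential (10.5) to A0 stationary (8.44) and exponential (6.45), with overlap between all neighbours. Without the shallow culture the CHO-S stationary mean was 16.9 CPM, and both remaining cultures lay above all exponential ones.

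Casp2 (gene ID 100689445) is the initiator recruited by the PIDDosome, a complex of Pidd1 and Cradd. In A0 it was at 9.05, 9.55, 9.92 and 9.0 CPM at exponential and at 3.72, 3.61, 5.38 and 6.15 CPM at stationary phase. In A1 the values were 8.67, 7.08 and 7.32 CPM and then 6.26, 7.63 and 5.49 CPM. In CHO-S they were 12.1, 12.4 and 13.4 CPM and then 6.19, 8.28 and 9.08 CPM, the shallow culture having 6 counts. Exponential and stationary cultures were separate in A0 and CHO-S and overlapped in A1, and in stationary A0 cultures 1 and 2 lay below cultures 3 and 4.

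Casp2 fell at stationary phase in A0 by a log2 fold change of -0.99 (SE 0.174, adjusted p = 0.000254), with -1.35 in cultures 1 and 2 alone and -0.71 in cultures 3 and 4 alone, both past the threshold. In CHO-S it fell by -0.59 (SE 0.127, adjusted p = 0.0248), and by -0.56 (SE 0.133, adjusted p = 0.000222) without the shallow culture; the call was lost with a replicate block and when any 1 of the other CHO-S cultures was left out (adjusted p = 0.102 to 0.171). In A1 the value was -0.23 (SE 0.162, adjusted p = 0.317). The difference between the responses of A1 and A0, 0.72 (SE 0.248), did not pass (adjusted p = 0.0715). It passed in 5 of 16 other settings, namely the replicate block (0.75, SE 0.226, adjusted p = 0.00914), DESeq2 (adjusted p = 0.0427), the first A0 libraries (adjusted p = 0.0418), A0 cultures 1 and 2 alone (1.08, adjusted p = 0.00233) and the omission of A0 culture 4 (adjusted p = 0.0156), so whether A1 and A0 differ in this response depends on the setting. The A0 response differed from that of CHO-S by -0.42 (adjusted p = 0.352), and by -0.74 (adjusted p = 0.0394) with A0 cultures 1 and 2 alone.

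Between A1 and A0 the level of Casp2 differed by -0.29 (SE 0.138, adjusted p = 0.149) at exponential phase, without overlap, and by 0.44 (SE 0.211, adjusted p = 0.133) at stationary phase. The second passed with the replicate block (0.59, adjusted p = 0.0142), with A0 cultures 1 and 2 alone (0.81, adjusted p = 0.00269) and without A0 culture 4 (0.59, adjusted p = 0.0428). Between lines the block joins cultures by numbers that run within each line and leaves A0 culture 4 without a partner. Its result is therefore not separate from that without A0 culture 4. At exponential phase Casp2 was lower than in CHO-S in A0 (-0.42, SE 0.115, adjusted p = 0.00695) and in A1 (-0.72, SE 0.120, adjusted p = 1.55e-05). At stationary phase A0 was lower than CHO-S by -0.83 (SE 0.242, adjusted p = 0.02), a call lost with the replicate block, with A0 cultures 3 and 4 alone and without A0 culture 2 or CHO-S culture 2 or 3 (adjusted p = 0.0515 to 0.116). A1 was lower by -0.39 (SE 0.192, adjusted p = 0.154), and by -0.43 (SE 0.176, adjusted p = 0.0301) without the shallow culture. Means ran from CHO-S exponential (12.7 CPM) through A0 exponential (9.38), CHO-S stationary (7.85), A1 exponential (7.69) and A1 stationary (6.46) to A0 stationary (4.71); only the top pair of neighbours did not overlap.

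Casp8 (gene ID 100689369) is the initiator of the death receptor route. In A0 it was at 32.7, 32.3, 33.7 and 30.2 CPM at exponential and 25.6, 26.4, 26.3 and 30.7 CPM at stationary phase. In A1 the cultures had 32.2, 34.1 and 29.4 CPM and then 26.6, 27.0 and 23.2 CPM. In CHO-S they had 13.6, 15.2 and 13.2 CPM and then 11.4, 12.2 and 12.6 CPM. Every A0 and A1 culture of either phase lay above every CHO-S culture, and A0 and A1 overlapped at both phases.

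Casp8 was higher than in CHO-S in A0 by a log2 fold change of 1.22 (SE 0.103, adjusted p = 2.06e-07) at exponential and 1.14 (SE 0.149, adjusted p = 0.000194) at stationary phase. In A1 it was higher by 1.19 (SE 0.0889, adjusted p = 4.97e-11) and 1.04 (SE 0.140, adjusted p = 0.000783), and these 4 calls held in every other setting. A1 and A0 differed by -0.02 (95% interval -0.22 to 0.19) at exponential and by -0.10 (-0.33 to 0.12) at stationary phase. Across phases it fell in A1 by -0.30 (SE 0.0925, adjusted p = 0.0108), a call lost in the fit of all 6 groups and without A1 exponential culture 2 or stationary culture 3 (adjusted p = 0.0632 to 0.0902). The A0 value was -0.25 (SE 0.101, adjusted p = 0.0622). It passed in 5 of 17 other settings: the replicate block (adjusted p = 0.0407), the fit of all 6 groups (adjusted p = 0.0481), A0 cultures 1 and 2 alone (-0.33, adjusted p = 0.0174) and without exponential culture 4 (adjusted p = 0.0467) or stationary culture 4 (adjusted p = 0.0339). The value of CHO-S was -0.19 (SE 0.109, adjusted p = 0.308). Means ran from A0 exponential (32.2 CPM) and A1 exponential (31.9) through A0 stationary (27.3) and A1 stationary (25.6), with overlap between these neighbours, to CHO-S exponential (14) and stationary (12.1), which were separate.

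Counted over the members, 2 of 7 passed between A1 and A0 at exponential phase (Casp9 higher, Xiap lower), where 25.7% of all genes passed (2396 higher and 2756 lower, of 20022), and 2 of 7 at stationary phase (Casp6 higher, Xiap lower), where 33.7% did (3084 higher and 3412 lower, of 19293). Against CHO-S, 5 of 7 passed in A0 at exponential phase, 2 of them higher and 3 lower (49.2% of all genes, 27.4% higher and 21.8% lower), and 4 of 7 in A1, 1 higher and 3 lower (57.2%, 30.0% and 27.1%). At stationary phase 5 of 7 passed in A0, 1 higher and 4 lower (40.0%, 20.7% and 19.3%), and 3 of 7 in A1, 1 higher and 2 lower (34.8%, 18.2% and 16.6%). Without the shallow culture these were 6 of 7 (51.8%) and 6 of 7 (57.4%). For the difference of phase responses, 1 of 7 passed between A1 and A0 (8.92% of all genes), 2 of 7 between A0 and CHO-S (10.3%) and 2 of 7 between A1 and CHO-S (7.60%). Without culture 1 of CHO-S the last pair were 2 of 7 (14.2%) and 3 of 7 (23.1%). Members whose cultures did not overlap numbered 3 between A1 and A0 at exponential phase (34.3% of all genes) and 2 at stationary phase (39.9%), 6 (53.5%) and 4 (45.1%) between A0 and CHO-S, and 5 (61.9%) and 3 (48.8%) between A1 and CHO-S. Without the shallow culture the stationary counts against CHO-S were 6 (63.1%) for A0 and 6 (68.9%) for A1. With 7 genes these shares are too coarse to set the members apart from other genes.

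The range of mean log2 CPM over the 6 groups was 2.73 for Casp6, 1.53 for Xiap, 1.38 for Casp8, 1.36 for Casp2, 0.82 for Casp9, 0.54 for Apaf1 and 0.38 for Diablo. Without the shallow culture it was 2.46, 1.37, 1.34, 1.36, 1.34, 0.38 and 0.45 in the same order, so that Casp9 was then near Xiap, Casp8 and Casp2. Gapdh, included as a control, was itself not level, at 3807 and 2118 CPM in A0, 3263 and 2349 CPM in A1 and 5815 and 8670 CPM in CHO-S at exponential and stationary phase. Its phase change was called in A0 (-0.86), A1 (-0.46) and CHO-S (0.58), the last call being lost in 6 of 12 other settings. Its responses in A0 and A1 were called below that of CHO-S, by -1.45 and -1.04. Gapdh thus moved in the same directions as Casp6, and such divergence is not particular to the members.

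Of 47 further genes listed for the same pathways, 41 were in the table, 3 of them (Casp4, Gsdme and Septin4) by gene ID, and 36 or 37 could be tested in the comparisons that follow; Cycs, Tnfrsf10b, Casp10, Pycard, Birc3 and Naip were not matched. At stationary phase 7 rose and 13 fell in A0, 4 rose and 14 fell in A1, and 4 rose and 4 fell in CHO-S (10 and 10 without the shallow culture). Over the other settings the counts of rising and falling genes ran from 5 to 7 and from 11 to 14 in A0, from 2 to 4 and from 6 to 15 in A1, and from 0 to 10 for each direction in CHO-S. In CHO-S 1 rose and 1 fell with a replicate block and without exponential culture 1 or 3 or stationary culture 2. Without exponential culture 2 edgeR called 0 in either direction, with 7 rising and 4 falling at an unadjusted p under 0.05; DESeq2 on all cultures called 4 and 5. The CHO-S counts therefore depend on single cultures. Of all genes tested, 3575 rose and 4066 fell in A0 (of 20326), 2895 rose and 3301 fell in A1 (of 18548), and 1182 rose and 1126 fell in CHO-S (of 17367). By group, 7 of the 11 caspase substrates and cell death nucleases fell in A0, 6 in A1 and 3 in CHO-S. None was called higher. Without the shallow culture 8 fell in CHO-S and 1 rose. In that setting 47.7% of all genes tested passed in either direction, against 13.3% with all CHO-S cultures. Of the inflammatory caspases and their partners 4 of 8 rose and 1 fell in A0, and 2 of 8 rose in A1 and in CHO-S, or 3 in CHO-S without the shallow culture.

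Lmnb1, a nuclear lamin of the kind that caspase-6 cleaves, fell in A0 (-1.42, SE 0.151), A1 (-0.96, SE 0.0600) and CHO-S (-1.27, SE 0.121). Gsdme, a gasdermin that forms membrane pores once cleaved by caspase-3, rose in A0 (1.49, SE 0.138), A1 (0.96, SE 0.116) and CHO-S (1.21, SE 0.211). Xaf1, an antagonist of XIAP, rose from 3.18 to 8.24 CPM in A0 (1.37, SE 0.176) and from 3.00 to 5.12 CPM in A1 (0.80, SE 0.205). Birc5, or survivin, an inhibitor of apoptosis family member that acts in mitosis, fell in A0 from 258 to 91.9 CPM (-1.50, SE 0.139). Cflar, which restrains caspase-8, rose in A1 from 30.7 to 48.3 CPM (0.66, SE 0.101). In CHO-S the inflammasome sensor Nlrp3 rose from 10.5 to 27.1 CPM (1.35, SE 0.140), and Pidd1 fell from 56.5 to 21.2 CPM (-1.24, SE 0.260; -1.05 without the shallow culture). All of these had an adjusted p of 0.0225 or lower from edgeR and no overlap between phases. An adjusted p under 0.05 and no overlap were conditions for naming them, so neither is further evidence. In CHO-S the calls of Gsdme and Pidd1 were lost with a replicate block and without exponential culture 1, 2 or 3 or stationary culture 2, that of Pidd1 also without stationary culture 3 (adjusted p = 0.0526 to 0.123), and those of Nlrp3 and Lmnb1 without exponential culture 2 (adjusted p = 0.0512 for each); all 4 held without the shallow culture. In A1 the call of Xaf1 was lost without stationary culture 3 (0.60, adjusted p = 0.0538).

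These genes were named for the line in which they ranked among the largest changes, and their values in the other lines, chosen after they were seen, follow. Cflar also rose in A0, from 38.6 to 87.1 CPM (1.16, SE 0.126), and in CHO-S, from 43.3 to 75.3 CPM (0.81, SE 0.122, adjusted p = 0.00775; 0.83 without the shallow culture). In CHO-S that call was lost with a replicate block and without exponential culture 1, 2 or 3 or stationary culture 2 (adjusted p = 0.0522 to 0.0749). Pidd1 also fell in A0, from 70.1 to 32.3 CPM (-1.13, SE 0.113), and in A1, from 80.9 to 50.5 CPM (-0.65, SE 0.0786), and Birc5 fell in A1 from 182 to 128 CPM (-0.49, SE 0.0617). Phases did not overlap in any of these. Nlrp3 was called higher in A0 as well (1.14, SE 0.266, adjusted p = 0.00274), with overlap, but not with A0 cultures 3 and 4 alone (adjusted p = 0.0537). Nlrp3 was not past the threshold in A1 (0.25, adjusted p = 0.485). For Birc5 in CHO-S the call rests on the shallow culture: exponential cultures had 157, 150 and 154 CPM and stationary ones 154, 92.9 and 100.4 CPM, the first being the shallow one, with -0.43 (adjusted p = 0.215) when it was kept and -0.68 (SE 0.0534, adjusted p = 2.78e-20) when it was left out. Xaf1 in CHO-S went from 4.07, 4.18 and 3.65 CPM to 15.5, 6.45 and 5.83 CPM, with 0.78 (adjusted p = 0.0933; 0.0187 in the fit of all 6 groups) and, without the shallow culture, 0.65 (SE 0.183, adjusted p = 0.00172).

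Between A1 and A0, 3 of 37 such genes were higher and 6 lower at exponential phase, and 8 of 36 were higher and 11 lower at stationary phase. Of all genes, 2396 of 20022 were higher and 2756 lower at exponential phase, and 3084 of 19293 and 3412 at stationary phase. Over the other settings the pathway counts ran from 0 to 6 higher and from 4 to 11 lower at exponential phase, and from 5 to 11 and from 6 to 12 at stationary phase. Without A1 exponential culture 1 or 2 edgeR called 0 higher, with 3 and 6 at an unadjusted p under 0.05; DESeq2 on all cultures called 3. Casp1, the caspase of the inflammasome, was lower in A1 at exponential phase (2.18 against 7.63 CPM, -1.80, SE 0.289, adjusted p = 0.000357) and at stationary phase (1.77 against 3.55 CPM, -1.05, SE 0.320, adjusted p = 0.0198). Its level also differed within A0, where exponential cultures 1 and 2 had 4.93 and 5.67 CPM and cultures 3 and 4 had 9.27 and 10.7 CPM. Gsdme was lower in A1 at both phases as well (-0.84, SE 0.118, and -1.41, SE 0.160). At exponential phase Birc5 was lower in A1 (-0.50, SE 0.125) and Dffa, which encodes the inhibitor of a caspase-activated nuclease, was higher (0.50, SE 0.138). At stationary phase the death receptor partners Cflar (-0.87, SE 0.106) and Tradd (-0.81, SE 0.126) were lower in A1. The calls of Birc5 (adjusted p = 0.0076), Dffa (adjusted p = 0.015) and, at stationary phase, Casp1 were lost in 1 of 16, 4 of 16 and 5 of 15 other settings: Birc5 with A0 cultures 3 and 4 alone, Dffa with these, in the fit of all 6 groups and without A1 culture 1 or 2, and Casp1 with A0 cultures 1 and 2 alone (-0.44) and without A0 culture 4 or A1 culture 1, 2 or 3.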

How the data were processed

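Libraries were made from RNA of CHO cultures with a stranded mRNA kit; no strand setting for counting is named. The authors aligned reads with STAR 2.5.4b, used HTSeq 0.7.2 to count them per gene and deposited raw counts. Library sizes and tests leave out the 5 summary lines of HTSeq: 2.31% to 11.5% of reads were not aligned, 11.9% to 32.8% lay outside genes, 12.7% to 14.8% aligned to more than 1 place, and 0.357% to 0.403% were ambiguous. Gene names were completed from RefSeq (CriGri-PICRH-1.0, 24186 of 28037 rows matched by gene ID); the counts were made on another build, and coordinates are therefore left out. No transcript lengths were available, and levels are not compared between genes.

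The 24 libraries gave 20 cultures after A0 exponential libraries of the same culture were summed. The filter asked for 1 count or more in 2 libraries or more and for a variance over 0, and edgeR 4.0.16 in R 4.3.3 was used for tests (TMM, quasi-likelihood test, two-sided, Benjamini-Hochberg, threshold 0.05), with only the groups of each comparison in a fit. Differences of phase responses were interaction terms in fits of 4 groups. CPM share 1 TMM scaling over all 20 cultures, and log2 fold changes come from the fits, so ratios of CPM can differ slightly from them. The labels give culture numbers but not whether numbers pair. Over all genes, A0 cultures of equal number correlated across phases (r = 0.19 to 0.43 over 4 pairs, from values centred within groups, and genes are not independent). Each was over the mark of 0.1 set for pairing. Unequal numbers correlated too, 1 with 2 at 0.24 and 0.18 and 3 with 4 at 0.27 and 0.33, so the number was the best match for 2 of 4. These values cannot tell pairing of numbers from likeness within A0 cultures 1 and 2 and within 3 and 4. The main tests have no block, and the block is given as an alternative. In the A1 phase comparison r was -0.13 to 0.18 over 3 pairs, with 0.27 for stationary culture 1 and exponential culture 2. In that of CHO-S it was -0.01 to 0.12 over 3 pairs. The p values measure the spread between these cultures.

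Alternatives were DESeq2 1.42.0, its size factors in edgeR, no filter, filterByExpr, a replicate block, all 6 groups in 1 fit, the first A0 libraries only, A0 cultures 1 and 2 or 3 and 4 only, and leaving out each culture. Between lines the block joins cultures by numbers that run within each line, and A0 culture 4 has no partner. At stationary phase r between equal numbers was -0.15 to 0.07 for A1 with A0 and -0.19 to 0.05 for A0 with CHO-S. Block results between lines are therefore not those of paired cultures. Size factors in edgeR shifted the median of all genes by less than 0.04 in each comparison. With DESeq2 itself the median moved by -0.12 for the difference of A0 and CHO-S responses and by -0.14 for that of A1 and CHO-S. Procedures were tested on simulated data, of which no results are given here. Python 3.11.15, numpy 2.4.6, pandas 2.3.3 and matplotlib 3.10.9 served for tables and figures. The members and pathway lists were chosen with earlier results of these data known. Named from the pathway lists were, per comparison of phases or of A1 with A0, up to 4 genes with the largest changes among those past the threshold with at least 1 CPM and no overlap. Phase responses of the pathway lists were not compared between lines.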

Additional observations from a re-analysis of the deposited data

Results flagged for a closer look

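In A0, 14 groups of 4 cultures (7 genes at 2 phases) were examined for a culture far from the others, measured as its gap to the nearest culture over the range of the group. Casp8 in stationary A0 had a ratio of 0.845, from culture 4, and Casp9 in exponential A0 a ratio of 0.839, also from culture 4. Chance gives about 1 such group in 20. Groups of 3 cultures were not examined.

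The phase response differed between lines by an interaction test in 5 of 21 gene and line pairs: Casp6 in A1 minus A0 (log2 difference 0.70), Casp6 in A0 minus CHO-S (-2.09) and in A1 minus CHO-S (-1.28), and Xiap in A0 minus CHO-S (-1.21) and in A1 minus CHO-S (-1.20). Of all genes, 8.92% passed for A1 minus A0, 10.3% for A0 minus CHO-S and 7.60% for A1 minus CHO-S, and these contrasts reuse the same cultures. The Casp6 call for A1 minus A0 was lost in 8 of 16 other settings, where edgeR adjusted p reached 0.153. The 4 differences from CHO-S share its cultures. CHO-S stationary culture 1, with 1038026 counts, had the highest Casp6 and Xiap values of its group, and all 4 differences passed without CHO-S culture 1.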

How the results depend on the processing

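Of 84 gene and comparison results for the members, 34 were past the threshold, 22 of these in every setting, and none of the 34 changed sign; the causes of the changes were not tested. The share of all genes called moved with the setting too. In the A0 phase response it was 37.6% in the main fit and 42.6% with a replicate block. In the CHO-S phase response it was 13.3% in the main fit and 47.7% without stationary culture 1. For most other settings this share is not given, so the counts below do not set the members apart from other genes. By setting, the number of members called moved as follows. With a replicate block by culture number it was 5 for the A0 phase response and 0 for the CHO-S phase response (4 at an unadjusted p under 0.05). It was 2 for the difference of A1 and A0 responses. Between lines this block joined cultures by numbers that run within each line. There it was 3 for A0 against CHO-S and 3 for A1 against A0 at stationary phase (Casp2 added, 0.59, edgeR adjusted p = 0.0142). At exponential phase it was 6 for A0 against CHO-S (Apaf1 added, edgeR adjusted p = 0.0415). Other counts were unchanged. With all 6 groups in 1 fit it was 1 for the A1 phase response, 4 for CHO-S, 1 for A1 against A0 at stationary phase and 0 for the difference of A1 and A0 responses (2 unadjusted). DESeq2 gave 1 for A1 against A0 at stationary phase and 2 for the difference of A1 and A0 responses, and 3 for the CHO-S phase response. A0 cultures 1 and 2 only gave 3 for A0 against CHO-S at stationary phase and 3 for the difference of A1 and A0 responses; A0 cultures 3 and 4 only gave 3, 0 (1 unadjusted) and, for A1 against A0 at exponential phase, 1. Leaving out 1 culture gave 0 to 5 for the CHO-S phase response (3 to 5 unadjusted), 1 to 3 for A1 against A0 and 3 to 6 for A0 and for A1 against CHO-S at stationary phase, and 0 to 2 for the difference of A1 and A0 responses (1 to 3 unadjusted). Smaller moves were as follows. The A0 phase response had 4 members called with 6 groups, filterByExpr, the first A0 libraries or A0 cultures 1 and 2, 2 with cultures 3 and 4, and 2 to 4 without single cultures; that of A1 had 2 to 4 without single cultures. A0 against CHO-S at exponential phase had 6 with DESeq2, its size factors or filterByExpr, 7 with A0 cultures 1 and 2, and 5 to 6 without single cultures; A1 against CHO-S had 3 with 6 groups and 3 to 4 without single cultures. At stationary phase A0 against CHO-S had 6 with 6 groups and 4 with filterByExpr, and A1 against CHO-S had 4 with 6 groups. With A0 cultures 1 and 2, A1 against A0 had 3 at each phase, and the difference of A0 and CHO-S responses had 3; that of A1 and CHO-S had 2 to 3 without single cultures. Values that were not called and changed sign follow, with the range over leaving out single cultures where that changed it. Apaf1 in the A0 phase response was 0.022 with DESeq2, 0.022 with its size factors, 0.033 with filterByExpr, 0.0046 with 6 groups, 0.11 with cultures 1 and 2, and -0.064 to 0.048. Casp9 in the A1 phase response was -0.051 to 0.15. Diablo in the CHO-S phase response was 0.024 (DESeq2), 0.00046 (size factors), 0.017 (filterByExpr) and -0.085 to 0.069. For A1 against A0, Casp8 was -0.078 to 0.040 and Diablo -0.019 (A0 cultures 3 and 4) at exponential phase, and Apaf1 was -0.18 to 0.011 at stationary phase. For the difference of A1 and A0 responses Casp8 was -0.13 to 0.0021, Xiap 0.11 (first A0 libraries) and -0.13 to 0.047, and Diablo -0.0030 (DESeq2), -0.069 (cultures 1 and 2) and -0.056 to 0.069. For that of A0 and CHO-S, Casp8 was 0.018 (A0 cultures 3 and 4) and Casp9 0.068 (DESeq2), 0.011 (size factors), 0.10 (replicate block), 0.22 (cultures 1 and 2) and -0.087 to 0.23. Cdk1 in the A0 phase response was 0.016 (first A0 libraries), 0.098 (cultures 3 and 4) and -0.098 to 0.011. Depth limits stationary CHO-S culture 1, in which Casp9 had 3 counts.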
